A study of Mus musculus with 4 samples.

Results

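ZFP57 binding was examined at 6 imprinted loci in which a short, paternally expressed transcript lies inside a larger host gene: the retrogenes Mcts2, Nap1l5, Zrsr1 and Inpp5f_v2, and the Nnat and Peg13 transcripts. A binding site was taken as a member when its deposited annotation names 1 of these loci or when it overlaps the germline differentially methylated region (DMR) of that name in the study's list by at least 1 bp. This gave 10 of the 158 listed sites. The annotation named the locus at all 10, and each site lay with all its bases inside the DMR. Zrsr1 and Inpp5f_v2 held 2 sites each, Peg13 held 3, and Mcts2, Nap1l5 and Nnat held 1 each.

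The study mapped endogenous ZFP57 by chromatin immunoprecipitation and sequencing (ChIP-seq) in hybrid embryonic stem (ES) cells of reciprocal crosses, to tell binding that follows the parent from binding that follows the strain. The BC cells had a C57BL/6J (BL6) mother and a Cast/EiJ (Cast) father, and the CB cells a Cast mother and a BL6 father. Both were kept undifferentiated with LIF and inhibitors of MEK and GSK3, and an anti-Zfp57 antibody was used in both. Each cross is a single cell line with 1 ChIP library, so a test on reads compares those libraries and not the conditions, and no difference has a replicate check. An input library per cross entered only the peak calls and the filter of SNPs. Expression was not measured in these libraries, so no marker of the cell type can be checked. Reads that overlap a SNP between the strains tell the parental allele, and the member sites held 774 such reads in BC and 577 in CB.

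ZFP57 is a KRAB zinc finger protein that binds a methylated hexanucleotide and recruits KAP1, and it keeps germline methylation in place while the rest of the early embryonic genome loses it. At the loci described here the maternal allele acquires this methylation in the oocyte, over a CpG-rich promoter within an intron of the host gene, and the transcript from that promoter comes from the paternal allele. Mcts2, Nap1l5, Zrsr1 and Inpp5f_v2 arose by retrotransposition of X-linked genes, whereas Nnat and Peg13 are not known as copies of this kind.

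The sequences of the bound intervals are given first because the arrangement of motifs differs between the loci. All are plus-strand mm9 reference sequence, and capitals mark the ZFP57 motif TGCCGCN, which reads NGCGGCA when it lies on the minus strand. The site in front of Mcts2 and the first Inpp5f_v2 site are shown whole for their motif clusters. The Nap1l5 site is shown without its untranslated stretch, the second Inpp5f_v2 site as the stretch before the annotated exon and the motif inside that exon, and Nnat by the intron that carries most of its motifs.
Mcts2, chr2:152512578-152512700: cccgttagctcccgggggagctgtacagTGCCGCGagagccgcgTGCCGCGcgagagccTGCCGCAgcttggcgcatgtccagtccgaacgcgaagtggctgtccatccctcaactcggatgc
Inpp5f_v2 site 1, chr7:135831465-135831580: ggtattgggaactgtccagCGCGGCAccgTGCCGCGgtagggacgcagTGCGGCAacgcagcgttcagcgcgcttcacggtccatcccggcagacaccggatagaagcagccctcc
Inpp5f_v2 site 2 before the exon, chr7:135831924-135832002: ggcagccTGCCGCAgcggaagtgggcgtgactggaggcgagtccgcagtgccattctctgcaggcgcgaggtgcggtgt
Inpp5f_v2 site 2 in the exon, chr7:135832003-135832029: agacagaggaTGCCGCGctcccatcgg
Nap1l5 coding part, chr6:58856811-58856961: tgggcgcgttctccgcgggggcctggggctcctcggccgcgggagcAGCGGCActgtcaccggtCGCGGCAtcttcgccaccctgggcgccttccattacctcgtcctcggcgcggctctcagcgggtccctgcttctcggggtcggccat
Nap1l5 upstream part, chr6:58857121-58857180: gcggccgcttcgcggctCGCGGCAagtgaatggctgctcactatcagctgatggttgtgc
Nnat intron, chr2:157385997-157386183: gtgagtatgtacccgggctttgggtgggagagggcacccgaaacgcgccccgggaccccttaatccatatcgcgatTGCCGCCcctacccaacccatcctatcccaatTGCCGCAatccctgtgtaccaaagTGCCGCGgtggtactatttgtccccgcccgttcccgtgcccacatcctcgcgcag
Peg13 site 1, middle, chr15:72640116-72640248: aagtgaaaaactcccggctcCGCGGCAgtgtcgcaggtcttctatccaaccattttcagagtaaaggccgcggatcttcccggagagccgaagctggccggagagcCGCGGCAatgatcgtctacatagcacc
Peg13 site 2, chr15:72640400-72640520: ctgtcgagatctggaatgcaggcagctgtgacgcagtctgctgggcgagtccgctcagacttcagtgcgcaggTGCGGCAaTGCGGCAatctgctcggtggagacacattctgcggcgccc

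The Zrsr1 sites contain no TGCCGCN, and the third Peg13 site has none in the reference either. They are shown for a short word they repeat or share, with capitals marking the 8 bases TGCGCAGG. This word was chosen after the sequences were seen, as the word with most copies in Zrsr1 that another member locus also carries. The first Zrsr1 site is longer than the stretch printed, which is its end.
Zrsr1 site 1, last part, chr11:22872201-22872500: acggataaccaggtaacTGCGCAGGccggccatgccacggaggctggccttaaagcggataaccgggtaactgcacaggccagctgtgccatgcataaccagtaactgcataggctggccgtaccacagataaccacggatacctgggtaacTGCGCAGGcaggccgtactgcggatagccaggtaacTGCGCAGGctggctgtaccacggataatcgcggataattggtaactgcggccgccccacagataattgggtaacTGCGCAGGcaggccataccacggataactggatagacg
Zrsr1 site 2, chr11:22872819-22872940: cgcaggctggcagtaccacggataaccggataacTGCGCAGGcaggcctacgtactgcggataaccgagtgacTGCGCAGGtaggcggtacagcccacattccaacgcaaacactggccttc
Peg13 site 3, chr15:72640647-72640787: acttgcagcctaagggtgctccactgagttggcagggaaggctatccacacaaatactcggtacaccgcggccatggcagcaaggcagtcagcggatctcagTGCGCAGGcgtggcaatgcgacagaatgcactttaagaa

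All 10 sites lay inside the host gene of GENCODE M1, and their place relative to the inner transcript differed. The Mcts2 site (123 bp) lay in H13, which encodes signal peptide peptidase, at -306 to -184 bp from the start of the single exon of Mcts2, a paralogue of the translation factor gene Mcts1. It touched no exon of either gene. The Nap1l5 site (chr6:58856811-58857180) spanned the start of Nap1l5, a gene of the nucleosome assembly protein family that runs against its host Herc3. It reached from -60 to 309 bp relative to the start, with 159 bp of untranslated and 151 bp of coding sequence. The sites at Zrsr1, a gene of a U2AF-related splicing factor in an intron of Commd1, lay upstream of its single exon. The first (chr11:22872044-22872500) lay at -1171 to -715 bp from the Zrsr1 start and the second (chr11:22872819-22872940) at -396 to -275 bp. Of the second, 41 bp overlapped an exon of a noncoding Commd1 transcript.

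Inpp5f_v2 is a transcript that starts late in Inpp5f, a phosphoinositide phosphatase gene. Its first site lay in an intron, 405 to 520 bp after the start of a noncoding Inpp5f transcript. The second (chr7:135831924-135832060) spanned the start of a coding transcript at 135832003, with 58 bp in its untranslated first exon. The Nnat site (chr2:157385839-157386200) covered the first exon and first intron of the gene for neuronatin, a small membrane proteolipid, inside Blcap on the opposite strand. A Nnat transcript that retains this intron is annotated, so no base of the site is intronic in all transcripts. Peg13 is a noncoding RNA within Trappc9, which encodes a subunit of a vesicle tethering complex, and GENCODE M1 has no Peg13 entry. Its sites (chr15:72639899-72640294, chr15:72640400-72640520 and chr15:72640647-72640787) were intronic in Trappc9 and separated by 105 and 126 bp. The gap between sites was 318 bp at Zrsr1 and 343 bp at Inpp5f_v2. The deposited annotation marks the Peg13 sites as intron and the other 7 as promoter, and names no repeat at any of the 10.

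**Figure D1:**
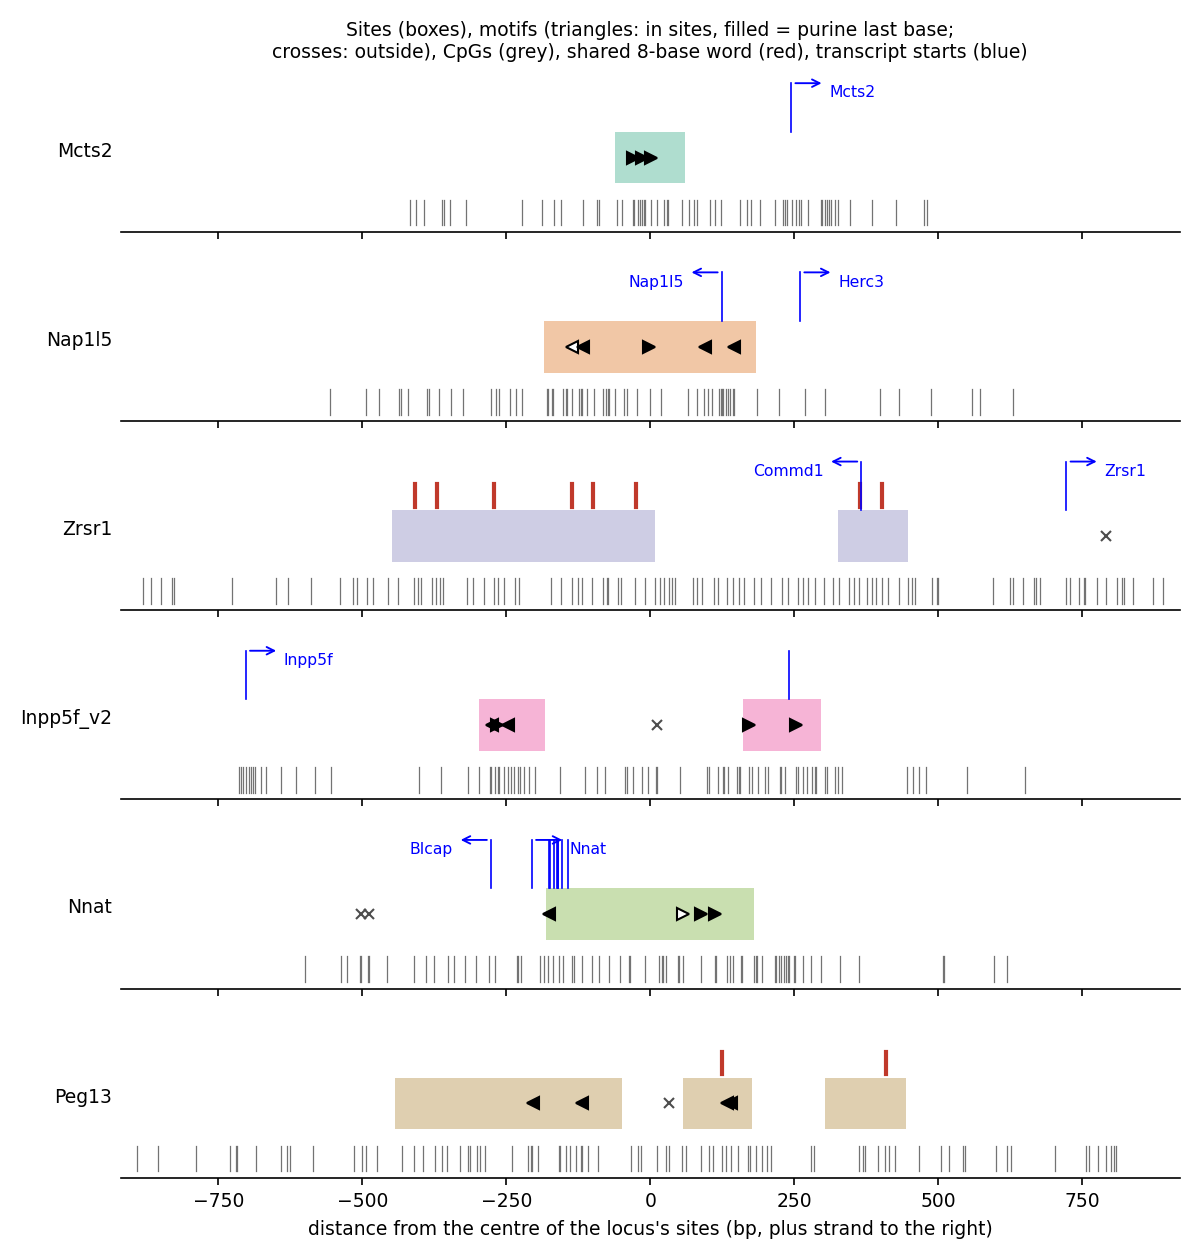
Map of the 6 loci in bp from the centre of their sites, with binding sites as boxes, motifs inside sites as triangles that point along their strand (filled with a purine as last base, open with a pyrimidine), motifs outside sites as crosses, CpG dinucleotides as grey ticks, copies of TGCGCAGG inside sites as red ticks and annotated transcript starts as blue arrows, drawn to 450 bp beyond the outermost sites. The 3 motifs of Mcts2 sit close together ahead of the gene, and the Zrsr1 sites hold copies of the word and no motif.

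By the deposited counts, the 10 sites carried 20 TGCCGCR and 2 TGCCGCY motifs (R, a purine, and Y, a pyrimidine, at the last base). A recount in the reference gave the deposited numbers at 9 of them, and at 128 of the 132 listed sites with a deposited count. The exception among the members was Peg13 site 3, deposited with 1 TGCCGCR. The reference holds none there, and the nearest TGCCGCN lies 160 bp outside the site. At least 1 motif was found in 7 of the 10 sites (70.0%) and in 127 of all 158 (80.4%). The same 7 of the 10 (70.0%) had 2 or more, as did 67 of the 158 (42.4%). Site length was not allowed for in these counts, and Peg13 site 1, Nap1l5 and Nnat are places 4, 5 and 6 of the 158 in length. Peaks without a motif were, by the study's methods, not considered for the list, so the presence of a motif is partly fixed by that selection. Of the 21 motifs recounted, 10 ended in G, 9 in A, 1 in C and 1 in T, and 10 lay on the plus strand and 11 on the minus strand. A purine ended 90.5% of them, against 80.3% of the 228 motifs in all sites.

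Spacing, taken from the first base of a motif to the first base of the next, was short at several loci. At Mcts2, 3 motifs on the plus strand were 16 and 15 bp apart. At Inpp5f_v2 site 1 they were 10 and 19 bp apart, with the middle motif on the opposite strand to its neighbours. Peg13 site 2 had a pair only 8 bp apart, with a single base between them. The spacing was wider at Inpp5f_v2 site 2 (82 bp) and Peg13 site 1 (86 bp), and ranged from 18 to 116 bp at Nap1l5 and from 24 to 233 bp at Nnat. Of the 27 motifs in the 6 DMRs, 21 lay inside the sites, which covered from 16.4% of the DMR at Mcts2 to 40.2% at Peg13. All 3 motifs of the Mcts2 DMR and all 5 of the Nap1l5 DMR lay inside the site. In the Zrsr1 DMR it was the reverse, with 2 motifs, both outside the sites and the nearest 341 bp from the second site and 781 bp from the first.

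TGCGCAGG occurred 6 times in Zrsr1 site 1 and 2 times in site 2, and 12 times in the whole DMR. Among the 158 sites, 6 (3.8%) contained it on either strand: the Zrsr1 sites, Peg13 sites 2 and 3 and 2 sites outside the loci. By the way the word was chosen, Zrsr1 and another member locus had to contain it, so nothing particular to the loci is read from this count. From the first copy of site 1 to the last of site 2, there were 11 copies at 10 spacings of 36 to 206 bp, and 36 bp occurred 2 times. Zrsr1 site 1 is also among the longest of the list, the third of 158 at 457 bp. No member site held a 32-base word that occurs elsewhere on the autosomes or the X chromosome of mm9, while 39 of the 158 sites did. CpG dinucleotides were densest at Mcts2, with 12.2 per 100 bp, and Inpp5f_v2 site 1, with 12.1, the fifth and sixth of the list. They were sparsest at Peg13 site 3, with 4.96 per 100 bp, and the medians were 8.28 over the 10 sites and 6.2 over all sites.

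Read density, the authors' score normalised for site length and aligned reads, was higher in BC than in CB at all 10 sites, as it was at 152 of the 158. The highest densities were at Peg13 site 2, with 225 in BC and 116 in CB, and at Inpp5f_v2 site 1, with 193 and 125. The latter was the second highest of all sites in CB and tied for place 25 in BC. Only these 2 members exceeded 100 in both crosses, as 10 of all sites did. Inpp5f_v2 site 2 had the same BC density as its neighbour, 193, but 47 in CB. Zrsr1 had 114 and 50 at site 1 and 145 and 52 at site 2. In BC the lowest members were Peg13 site 1, with 38, and Peg13 site 3, with 66, on either side of the strongest Peg13 site. In CB these had 18 and 43, and the lowest member was Mcts2 with 17. The medians over the 10 sites were 164.5 in BC and 48.5 in CB, against 107 and 38.5 over all sites, and 8 of the 10 lay above the median in each cross. For the 16 autosomal sites outside the loci that were called maternal by the test given below, the medians were 177 and 49. Of these, 12 in BC and 10 in CB lay above the median over all sites.

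Mcts2 stood apart, since its density was 180 in BC but 17 in CB. The ratio of BC to CB was 10.6 (10.3 to 10.9 when the rounding of the deposited scores is allowed for), a log2 ratio of 3.40, and no other site of the 158 had a higher one. The next highest ratio outside the loci was 8.90 and the median over all sites was 2.79. In percentile rank, which places a density among the authors' candidate peaks, Mcts2 was at 99.94% in BC and 97.37% in CB. The other members spread on both sides of the median ratio. Nnat, at 169 in BC and 40 in CB, had 4.23, Inpp5f_v2 site 2 had 4.11, and Nap1l5, at 160 and 52, had 3.08. Below the median were Zrsr1, with 2.79 at site 2, just under the median, and 2.28 at site 1, the Peg13 sites, with 2.11, 1.94 and 1.53 in order, and Inpp5f_v2 site 1 with 1.54. Within Inpp5f_v2, sites 343 bp apart thus fell at places 143 and 34 of the 158 by this ratio. Peg13 site 1 was at 95.40% in BC and 97.52% in CB. The mean percentile rank was 98.7% at Mcts2 and 96.5% at Peg13 site 1, and at least 99% at the other 8 members. The authors chose the list largely by this rank, so nothing about the loci is read from it.

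**Figure D2:**
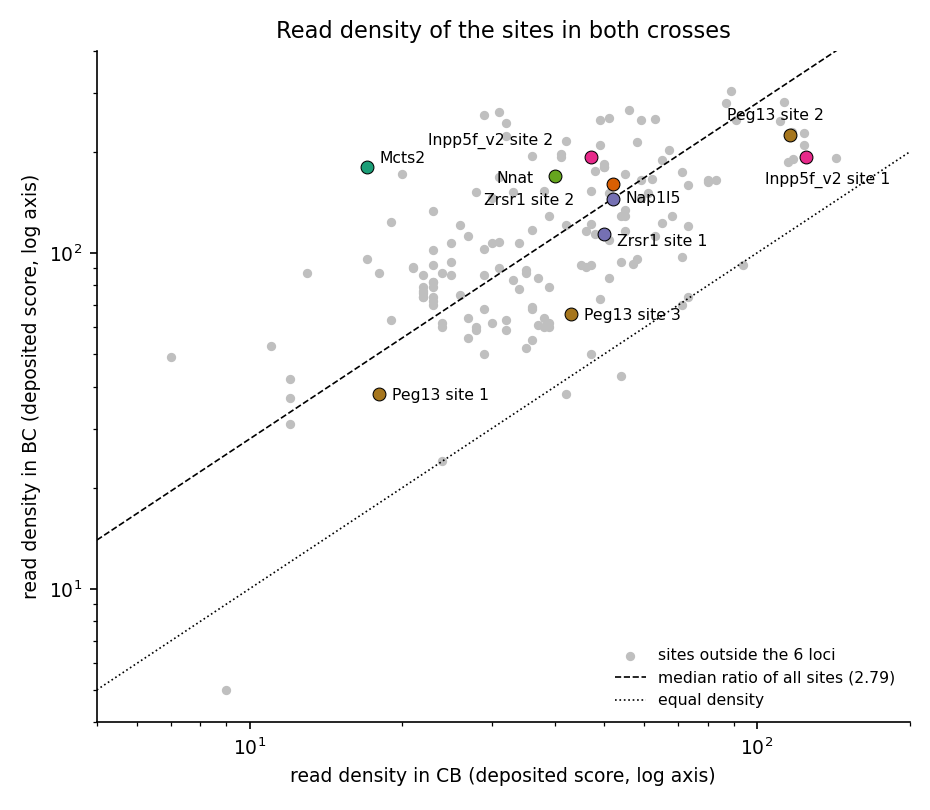
Read density in BC against CB (deposited score, log axes) for the 10 member sites, coloured by locus and named, and the sites outside the 6 loci in grey, with lines at the median ratio of 2.79 and at equal density. Mcts2 lies farthest above the median line, with 180 in BC and 17 in CB.

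Allele-specific reads were present at 7 of the 10 sites. The sites at Nap1l5 and Nnat and the second Zrsr1 site contain no SNP of the authors' filtered set, as do 41 of all sites. The parental allele could thus not be read there in spite of densities of 145 to 169 in BC. The filter left out, among others, SNPs close to indels or repeats, so identical strain sequence is not shown at these sites. The other 7 had 1 SNP (Mcts2 and Inpp5f_v2 site 2) to 7 SNPs (Peg13 site 1). For parental origin, BL6 and Cast reads were compared between the crosses at each site by Fisher's exact test, two-sided. A site was called at p under 0.0001, unless the test of the maternal share between the crosses, given below, had a lower p. All 7 were called maternal, at 4 loci, while 25 of the 116 listed sites with reads were (21.6%). The 25 include these 7 and sites on chromosome X, where the paper expects the maternal allele because both lines are male. Sites of 1 locus can share DNA fragments and are not independent.

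Zrsr1 site 1 had the most reads of the 7. In BC 253 were from BL6 and 11 from Cast, and in CB 9 were from BL6 and 159 from Cast. The maternal strain thus led in either direction of the cross, with 95.8% maternal reads in BC (92.7 to 97.7%, 95% Wilson interval) and 94.6% in CB (90.1 to 97.2%). These intervals hold for counting error alone, and reads copied by PCR are not independent. At Mcts2, 58 of 59 reads in BC were from BL6 and all 11 in CB from Cast. With 0 paternal reads in CB, a true paternal share as high as 27.3% remains possible (3 counts of 11). At Inpp5f_v2 site 1 the paternal reads were 17 of 100 in BC and 10 of 95 in CB. Its maternal share was 83.0% in BC (74.5 to 89.1%) and 89.5% in CB (81.7 to 94.2%). Site 2 of that locus had few reads, with 1 of 22 paternal in BC and 2 of 11 in CB.

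The Peg13 sites had 128, 131 and 70 reads in BC and 107, 109 and 76 in CB. In BC, 7, 5 and 3 of these were paternal, and in CB 11, 8 and 10. The maternal share in BC was 94.5%, 96.2% and 95.7% along the locus, and in CB 89.7%, 92.7% and 86.8%. Site 1, with the lowest density, had 235 reads in all over 396 bp and 7 SNPs, and site 2, with the highest, had 240 over 121 bp and 3 SNPs. The parental p of the 7 sites ran from 9.28e-92 at Zrsr1 site 1 to 1.32e-05 at Inpp5f_v2 site 2 (Fisher's exact test). With every read on the maternal allele, the depth of the latter would have allowed an exact p of 5.17e-09, and that of Mcts2, whose Fisher's exact p was 5.55e-12, one of 4.62e-13.

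**Figure D3:**
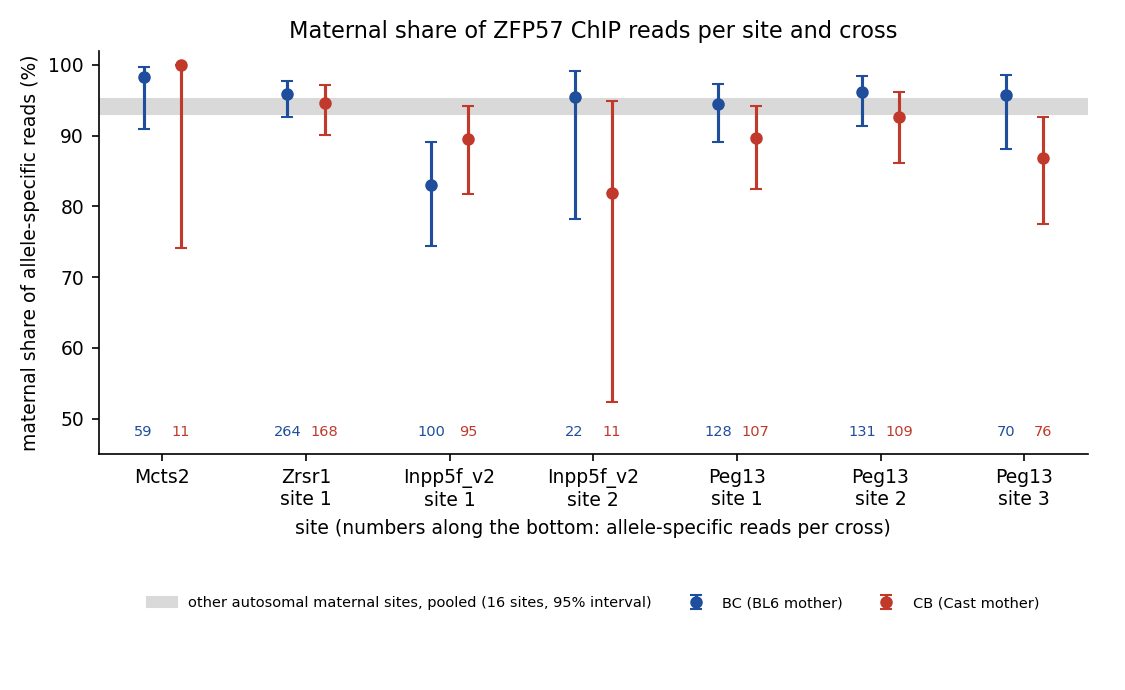
Share of allele-specific reads from the maternal allele (%) at the 7 sites with reads, in BC and CB, with 95% Wilson intervals, the reads per cross along the bottom and the pooled interval of the 16 other autosomal maternal sites as a grey band. Inpp5f_v2 site 1 is the lowest in BC with 83.0%, and the 3 Peg13 sites are each lower in CB than in BC.

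Whether the maternal share depends on the direction of the cross was asked at each site with Fisher's exact test on the parental reads of both crosses, adjusted over the 116 sites with reads by the Benjamini-Hochberg method. None of the 7 sites passed an adjusted p of 0.05, while 36.2% of all sites with reads did, among them the strain-specific sites. None had an unadjusted Fisher's exact p under 0.05 either. The smallest was at Peg13 site 3 (Fisher's exact p = 0.0814, adjusted p = 0.201), where the share was 8.87 percentage points higher in BC (interval of the difference -0.699 to 18.7). The share was lower in CB at 5 of the 7 sites, and higher in CB at Mcts2 and Inpp5f_v2 site 1. At Mcts2 the interval of the difference ran from -9.0 to 24.2 points, so a sizeable difference was not detectable at this depth.

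As all Peg13 sites had lower values in CB, their reads were also summed, a choice made after the data were seen. The sum restates that shared direction, so no difference between the crosses is read from its test. Of the summed reads, 15 of 329 in BC and 29 of 292 in CB were paternal. The maternal share was 95.4% in BC (92.6 to 97.2%) and 90.1% in CB (86.1 to 93.0%), a difference of 5.37 points (1.30 to 9.72). Fisher's exact test gave p = 0.0116, and 0.0813 after adjustment over the 14 loci with an autosomal maternal site, which did not pass. Of these loci, 7.14% passed. The same test gave 85.2% in BC and 88.7% in CB at Inpp5f_v2, and 95.8% and 94.6% at Zrsr1 with its single site with reads, each with an adjusted Fisher's exact p of 0.942.

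The loci were then compared with each other and with the other maternal sites. Over both crosses, the maternal share was 98.6% at Mcts2 (92.3 to 99.7%), 95.4% at Zrsr1 (93.0 to 97.0%), 92.9% at Peg13 (90.6 to 94.7%) and 86.8% at Inpp5f_v2 (81.8 to 90.6%). Inpp5f_v2 was thus the lowest, with 30 paternal reads of 228. Of these paternal reads, 27 were at its site 1. Against the summed reads of the 21 autosomal maternal sites outside it, of which 94.2% were maternal (93.3 to 95%), its share was lower (Fisher's exact p = 8.85e-05, adjusted p = 0.00124). Those sites, like Inpp5f_v2, were called maternal from the same reads. The test and the interval on summed reads leave out the spread between sites. Inpp5f_v2 was the only locus of the 14 to pass this test (7.14%). Single sites among the 16 maternal sites outside the 6 loci ranged from 88% to 100% in maternal share, with a median of 93.8%, so the lowest of them came near the share of Inpp5f_v2. The adjusted Fisher's exact p was 0.381 at Mcts2 and Zrsr1 and 0.557 at Peg13. With adjustment over the 4 member loci with reads in place of all 14, Inpp5f_v2 passed with reads of both crosses and with BC reads alone, and did not with CB reads alone. The difference between the crosses did not pass the test above, so no difference between them is shown for this result.

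Between single sites, 21 pairs could be compared among the 7 members. With adjustment over all 253 pairs of autosomal maternal sites, 1 of these 21 differed, which was also the only pair called among the 253 (0.395%). It was Zrsr1 site 1 against Inpp5f_v2 site 1, with 95.4% and 86.2% maternal reads, a difference of 9.22 points (4.41 to 15; Fisher's exact p = 0.000116, adjusted p = 0.0293). With CB reads alone and with read counts halved, this pair did not pass even with adjustment over the 21 member pairs in place of all 253. Mcts2 and Inpp5f_v2 site 1 differed by 12.4 points (4.93 to 18.1), which did not pass (Fisher's exact p = 0.00247, adjusted p = 0.0891). With the planned adjustment over the 21 member pairs, this pair and Inpp5f_v2 site 1 against Peg13 site 2 passed as well. Neither passed that adjustment with CB reads alone or with read counts halved. None of the 4 pairs within a locus passed (lowest Fisher's exact p = 0.211, for Peg13 sites 2 and 3, which differed by 3.49 points). The Peg13 sites had 92.3%, 94.6% and 91.1% maternal reads, and the Inpp5f_v2 sites 86.2% and 90.9%, the latter with an interval of 76.4 to 96.9% from 33 reads.

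The libraries did not contribute equally to each site. Over all 158 sites, 64.1% of the allele-specific reads came from BC. Mcts2 was above this, with 84.3% of 70 reads from BC (74.0 to 91.0%; Fisher's exact test against all other sites, adjusted p = 0.00151). Below it were Inpp5f_v2 site 1 with 51.3% (adjusted exact p = 0.00168) and the 3 Peg13 sites with 54.5%, 54.6% and 47.9% (adjusted exact p = 0.00971, 0.00927 and 0.000605). Zrsr1 site 1 (61.1%) and Inpp5f_v2 site 2 (66.7%) did not pass. So 5 of the 7 sites departed from the balance of the list, while 43.1% of the 116 sites with reads did, 18.1% with an excess of BC reads and 25.0% with a deficit. The density ratios of these 5 sites lay on the same side of their median, in the same libraries. With all read counts halved, only Peg13 site 3 of the 7 passed the threshold.

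**Figure D4:**
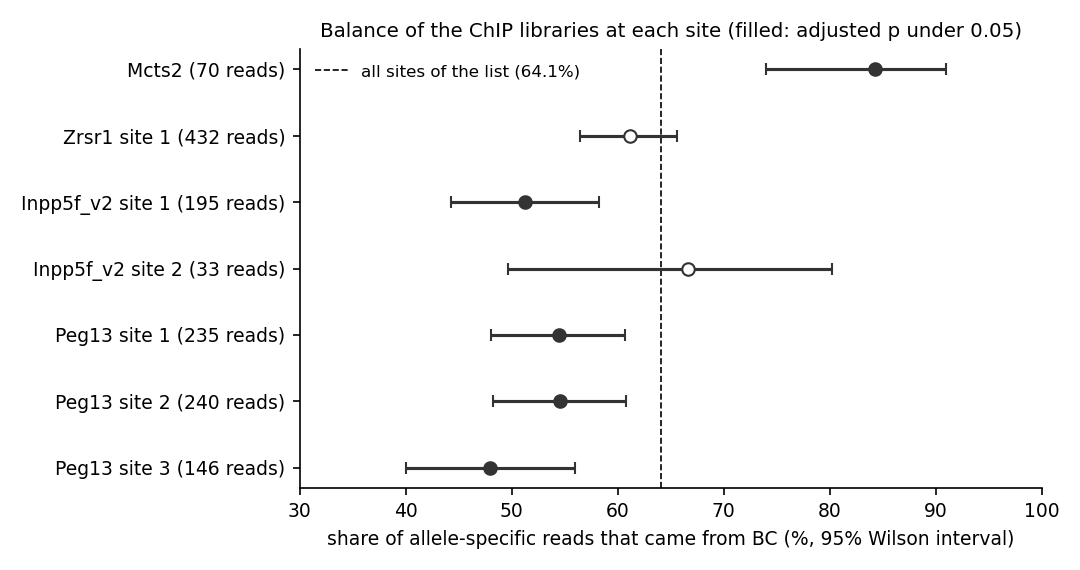
Share of each site's allele-specific reads that came from the BC library (%), with 95% Wilson intervals, filled where Fisher's exact test against all other sites gave an adjusted p under 0.05, and the share over all listed sites as a dashed line at 64.1%. Mcts2 lies above the line with 84.3%, and Inpp5f_v2 site 1 and the Peg13 sites lie below it.

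Among the 6 loci, only Inpp5f_v2 had another listed site within 1 Mb. This site (chr7:136141436-136141580), annotated as distal intergenic and 309.4 kb away, had densities of 107 in BC and 30 in CB. Cast gave 101 of its reads in BC against 75 from BL6, and 54 in CB against 22, so Cast led in both crosses with 61.5% of all reads (55.4 to 67.3%). Its parental Fisher's exact p was 0.0484, against 3.9e-26 at Inpp5f_v2 site 1. In the test of the maternal share between the crosses, in which strain-specific sites pass, its Fisher's exact p was 3.54e-05 (adjusted p = 0.000152). The Mcts2 and Nnat sites share chromosome 2 but lie 4873 kb apart.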

How the data were processed

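Data from 1 ChIP library per cross were used, from the authors' list of sites on mm9 (NCBIM37). The authors aligned single-end reads with Bowtie to BL6 and Cast genomes, kept unique alignments, called peaks with MACS against input and overlapped the peaks of both crosses. They chose the list by percentile rank, with sites added from qPCR, and did not consider peaks over simple repeats or without a motif. The deposited counts are strain-specific reads per site, not normalised. The deposited density is a score normalised by the authors for site length and aligned reads and rounded. The authors' percentile ranks are in percent. Columns with the authors' own p-values and allele calls were not used.

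Members and lists were chosen with earlier results of these data known. All sites of the 6 loci are named, with host genes and the nearest other site within 1 Mb. Fisher's exact tests of single sites were run over all listed sites with reads. Those of pairs and of loci were run over the autosomal sites called maternal. Benjamini-Hochberg adjustment was applied, except that the parental call rests on an unadjusted p under 0.0001. Differences of shares carry Newcombe intervals from Wilson limits. Adjustment over all maternal loci and all pairs and motifs with a mismatch were added after the data were seen. So were the locus sums for the difference between the crosses. The tests between pairs of sites and of each locus against the other maternal sites were planned, with adjustment over the members. Python 3.11.15, numpy 2.4.6, scipy 1.17.1, numba 0.67.0, pysam 0.24.0 and matplotlib 3.10.9 were used with GENCODE M1. The parental calls and the motif search were tested on simulated data, and the functions for Fisher's exact test and the adjustment against known values. The other steps were not tested in this way.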

Additional observations from a re-analysis of the deposited data

How the results depend on the processing

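Of 27 alternatives for the main results, 21 left the count of member sites, pairs, loci or motifs within 1.5 times. All 7 maternal calls held at p under 0.01 and with Benjamini-Hochberg adjustment at 0.05. Both settings are looser than the main threshold, so this outcome was fixed in advance, though both are counted among the 21. Of the stricter settings, 6 calls held at p under 0.000001 and 6 with read counts halved. Within a single cross parent and strain cannot be told apart, so a test there shows only a skew towards the maternal strain. Such a skew passed the exact binomial test at 7 sites in BC and 5 in CB, where Mcts2 (exact binomial p = 0.000977) and Inpp5f_v2 site 2 (exact binomial p = 0.0654) had 11 reads each. No share over all sites with reads is given for this test, so these counts are not read as particular to the loci. With adjustment over the 21 member pairs alone, 3 pairs differed in maternal share, against 1 over all pairs, 4 with BC reads alone, 0 with CB reads alone and 0 with read counts halved. The lower share of Inpp5f_v2 was the 1 called locus in the main test and 0 were called with CB reads alone, while 1 was called with read counts halved. The number of sites that departed from the balance of the libraries fell from 5 to 1 with read counts halved. Allowing 1 mismatch in the first 6 bases, an alternative chosen after seeing the data, gave 73 motifs in the reference, against 21 there without a mismatch and 22 by the deposited counts. For these changes, the cause was not tested. No paired analysis was possible because each cross has 1 ChIP library. Of the 7 sites with reads, Mcts2 and Inpp5f_v2 site 2 had the fewest, and 3 sites had none.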

Other observations

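With 1 mismatch allowed in the first 6 bases, motif-like words were found in all 10 member sites and in 151 of the 158. Zrsr1 site 1 held 4 such words in 457 bp and Zrsr1 site 2 held 1 in 122 bp, while Mcts2 held 6 in 123 bp. In Peg13 site 3, where the deposited count of motifs exceeds that of the reference, 5 were found in 141 bp. The 8-base word TGCGCAGG of the Zrsr1 sites also occurs in Peg13 site 2, where it ends directly before the first TGCCGCN of the pair.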
